A study of Mus musculus with 22 samples.

Results

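H3K27me3 at the mouse Zfp genes, 133 genes with 176 peaks, was compared between retinas that lacked Jarid2 and control retinas. The members are all genes of the deposited peak table whose symbol starts with Zfp and a number and that do not lie on the X chromosome. They make up 133 of 12370 genes and 176 of 19034 peaks in the table, and 131 of them are protein-coding. The rule left out 3 Zfp genes on the X chromosome, with 3 peaks. The marks were mapped by CUT&RUN, in which a nuclease tethered to an antibody cuts out the DNA beside marked nucleosomes, in retinas of C57BL/6 mice at embryonic day 18.5. The 5 conditional knockout animals (cKO) were Jarid2 fl/fl; Rx-cre. Of the 5 controls, replicate 1 was Jarid2 fl/+; Rx-cre, replicates 2, 4 and 5 were Jarid2 fl/+ and replicate 3 was Jarid2 fl/fl, and the labels name no Cre in these 4. Cre was induced in all litters with tamoxifen, 75 µg per g given to the mothers at E10.5, so the controls were exposed to it too. Rx-cre, called Rax-CreERT2 in the protocol, is active in retinal progenitors, so cells of the retina that come from elsewhere, such as vessels, keep Jarid2. Both retinas of an animal were pooled. Batch 1 held 2 animals per genotype, of both sexes, and batch 2 held 3 animals per genotype, all male, each measured in 2 technical duplicates that were summed.

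The name Zfp, for zinc finger protein, is shared by genes with different tasks. Most encode DNA-binding proteins with tandem C2H2 zinc fingers, and the largest group of these also carries a KRAB domain, which recruits the co-repressor Trim28 and the H3K9 methyltransferase Setdb1 to silence transposable elements and some imprinted genes. KRAB genes arose by repeated duplication and lie in clusters on many chromosomes. A smaller number, such as Zfp503 and Zfp703, are conserved regulators of development, and Zfp36l1 encodes an RNA-binding protein that promotes mRNA decay. H3K27me3 is laid down by Polycomb repressive complex 2 (PRC2), of which Jarid2 is an accessory subunit, and typically spreads over the CpG-rich start sites of silent developmental genes.

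An animal held 1688368 to 2864080 counted reads or fragments in peaks, called reads here, and levels are given as CPM (counts scaled to the same total in every animal). The mark does not measure expression, so it cannot fully check the tissue. Among regulators of retinal identity, Rax, Six3 and Six6 had no assigned peak and Pax6 had 21.5 CPM in controls, whereas Lhx2 had 126 CPM and the 5 Hox genes with a peak had a median of 4424 CPM. The loss of Jarid2 itself was not checked, since counts of the mark do not measure it. In whole retina, a change in the share of cells that carry the mark and a change per cell cannot be told apart.

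H3K27me3 at Zfp genes mostly lay beside the gene, upstream of its start site, and not across it. Of the 176 peaks, 129 (73.3%) lay upstream of the annotated start site, 24 lay downstream and 23 (13.1%) spanned it. Among 11747 peaks of other protein-coding genes, 39.7% lay upstream and 35.9% spanned the start. The window from 1 to 5 kb upstream held 77 Zfp peaks (43.8%), against 14.9% of the peaks of other coding genes, while the same window downstream held 7 Zfp peaks (3.98%), against 5.40%. In RefSeq (GRCm38.p6, the assembly that mm10 represents), 45 Zfp peaks overlapped the body of their own gene and 128 overlapped no coding gene at all. The other 3 overlapped only another coding gene: the Zfp11 peak overlapped Septin14, the Zfp108 peak Zfp109 and a Zfp518a peak Blnk. No test of these shares was made, since the genes were chosen with results of these data known.

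**Figure D1:**
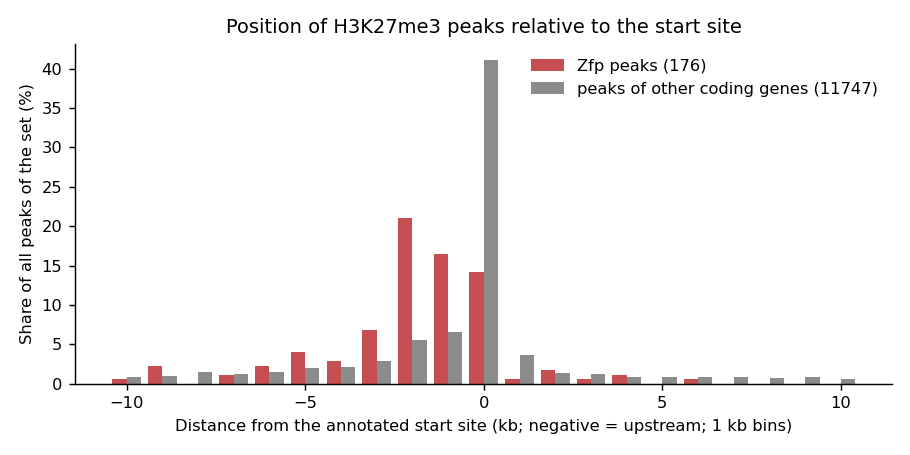
Share of peaks (%) by distance from the annotated start site (kb, 1 kb bins, negative is upstream) for the 176 Zfp peaks and the 11747 peaks of other coding genes, with a peak that spans the start counted at 0, in a bin that also holds peaks within 0.5 kb. Peaks beyond the axis count in the shares but are not drawn. Zfp peaks pile up from 1 to 5 kb upstream, where 43.8% of them lie, while peaks of other coding genes pile up at the start.

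Having a peak was about as common for Zfp genes as for other genes. Of 388 coding Zfp genes on autosomes in RefSeq, 131 (33.8%) had an assigned peak, against 7353 of 20665 autosomal coding genes (35.6%). Promoter windows of 300 bases, from 250 before to 50 after a RefSeq start site, were available for 111 of the 133 genes. A peak of the table reached into such a window at 15 of the 111 (13.5%), and at 45.9% of 5579 other coding genes with an assigned peak. At the other 96 genes the nearest peak began a median of 2084 bp from the window, and at 75 of them within 5 kb. Where a gene had several windows, the window with most CpG was used for base counts. The dinucleotide CG, which reads the same on both strands, occurred a median of 13 times in the windows of the 111 genes. The median was 15 at 214 Zfp genes outside the list, 18 at other coding genes with a peak and 13 at other coding genes without one. Of all 20085 coding windows, 95.6% held at least 1 CG, with a median of 14. Zfp genes with any window reached by a peak had a median of 19 CG in the counted window, and the others 12. At Zfp791, Zfp800 and Zfp821 the peak reached another window of the gene, and the counted window lay outside it.

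Both arrangements are shown by 6 promoter windows, with each CG in capitals and the strand of the gene read 5′ to 3′. The start sites of Zfp503 (chr14:21989552-21989851, minus strand, 19 CG), Zfp804a (chr2:82053408-82053707, plus strand, 45 CG) and Zfp853 (chr5:143293485-143293784, minus strand, 22 CG) lay inside a peak. These are 3 of the 5 Zfp genes with the highest H3K27me3. The windows of the other 2, Zfp266 with 23 CG and Zfp959 with 14 CG, lay outside every peak, 2201 bp and 763 bp from the nearest.
Zfp503: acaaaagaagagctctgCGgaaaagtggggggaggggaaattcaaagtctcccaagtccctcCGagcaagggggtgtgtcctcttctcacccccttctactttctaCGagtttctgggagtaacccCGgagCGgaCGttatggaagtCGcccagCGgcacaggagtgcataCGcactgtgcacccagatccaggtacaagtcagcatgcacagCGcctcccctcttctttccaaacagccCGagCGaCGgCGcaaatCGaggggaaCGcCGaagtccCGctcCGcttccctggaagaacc
Zfp804a: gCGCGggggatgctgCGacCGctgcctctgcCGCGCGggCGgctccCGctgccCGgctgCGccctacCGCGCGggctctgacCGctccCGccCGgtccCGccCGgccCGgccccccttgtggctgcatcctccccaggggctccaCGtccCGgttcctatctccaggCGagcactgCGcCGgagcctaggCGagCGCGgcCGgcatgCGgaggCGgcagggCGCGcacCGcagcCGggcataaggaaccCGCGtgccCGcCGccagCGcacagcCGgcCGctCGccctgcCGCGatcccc
Zfp853: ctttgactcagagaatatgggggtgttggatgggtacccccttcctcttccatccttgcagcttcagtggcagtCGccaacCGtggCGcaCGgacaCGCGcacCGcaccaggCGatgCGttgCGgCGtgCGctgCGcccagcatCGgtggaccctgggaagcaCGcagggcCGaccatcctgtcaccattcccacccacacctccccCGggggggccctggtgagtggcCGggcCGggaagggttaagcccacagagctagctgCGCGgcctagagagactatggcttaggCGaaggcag
The windows of Zfp799 (chr17:32830212-32830511, minus strand, 6 CG), Zfp869 (chr8:69716853-69717152, minus strand, 8 CG) and Zfp964 (chr8:69654306-69654605, plus strand, 24 CG) lay outside every peak. The nearest peaks were 929 bp, 3788 bp and 2186 bp away, and these 3 genes are shown because their upstream peaks rose in cKO, as described further on.
Zfp799: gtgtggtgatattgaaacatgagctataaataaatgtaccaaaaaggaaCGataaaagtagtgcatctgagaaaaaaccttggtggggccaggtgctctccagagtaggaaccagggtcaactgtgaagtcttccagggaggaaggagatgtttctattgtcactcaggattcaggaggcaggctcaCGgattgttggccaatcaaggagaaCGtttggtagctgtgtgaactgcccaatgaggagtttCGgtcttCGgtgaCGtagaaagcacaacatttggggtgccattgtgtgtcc
Zfp869: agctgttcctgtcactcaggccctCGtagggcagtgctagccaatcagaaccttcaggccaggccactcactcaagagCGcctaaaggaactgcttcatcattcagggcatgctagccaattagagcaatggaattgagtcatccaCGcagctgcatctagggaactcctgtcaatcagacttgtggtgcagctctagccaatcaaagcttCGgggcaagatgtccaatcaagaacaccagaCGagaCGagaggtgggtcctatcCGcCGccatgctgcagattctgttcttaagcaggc
Zfp964: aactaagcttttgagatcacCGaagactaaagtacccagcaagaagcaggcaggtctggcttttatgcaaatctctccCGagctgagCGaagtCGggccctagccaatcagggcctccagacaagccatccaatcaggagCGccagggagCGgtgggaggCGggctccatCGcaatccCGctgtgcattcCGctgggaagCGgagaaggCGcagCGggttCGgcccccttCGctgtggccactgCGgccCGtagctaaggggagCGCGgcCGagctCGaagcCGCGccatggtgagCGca
The sequences and coordinates come from RefSeq on GRCm38.p6.

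The level of the mark varied widely among the genes. Summed over the peaks of a gene, controls held from 1.83 to 457 CPM, with a median of 21.7 CPM, against 25.6 CPM over all genes. Above 100 CPM were 13 Zfp genes, 87 lay from 10 to 100 CPM and 33 below 10 CPM. The highest was Zfp503, which encodes a transcriptional repressor of the NET family needed in the developing brain and limb. Controls had 510.7, 481.6, 502.4, 434.7 and 353.3 CPM, a mean of 457 ± 64.8 CPM, and cKO animals 395.0, 448.3, 432.4, 443.3 and 398.9 CPM, a mean of 424 ± 25 CPM (SD, n = 5 each). The cKO values all lay within the range of the controls, of which control replicate 5 was the lowest. Next came Zfp853 (248 ± 16.1 CPM in controls), Zfp266 (221 ± 15 CPM), Zfp804a (167 ± 10.2 CPM), whose human counterpart is known for association with schizophrenia, and Zfp959 (161 ± 5.73 CPM). The SDs of Zfp804a and Zfp959 overlap, so their order is not resolved. Per kb of peak, Zfp503 had 23.7 CPM per kb and Zfp266 10.8 CPM per kb, and the Zfp peaks had a median of 4.83 CPM per kb against 5.18 for other peaks.

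In cKO retinas most Zfp genes had slightly more H3K27me3, relative to the other peaks, than in controls, but a single gene passed the test. The sums per gene were compared with the quasi-likelihood test of edgeR with batch as a term, fitted over 11324 genes, and a gene was called at an adjusted p (Benjamini-Hochberg) under 0.05. Of the 133 Zfp genes, 124 had enough reads to be tested, and the 9 others held at most 3.46 CPM in controls. Lower in cKO were 0 of the 124, against 8.29% of all genes, and higher was 1, Zfp799, against 1.48% of all genes. DESeq2 called 0 Zfp genes, and at an unadjusted p under 0.05 edgeR had 18 higher and 2 lower. Log2 fold changes (cKO over control) were above 0 for 103 of the 124 genes (83.1%), against 53.2% of all genes tested. Their median was 0.15, with quartiles of 0.036 and 0.23, against a median of 0.015 and quartiles of -0.12 and 0.14 over all genes. No set test was made, and the list was drawn up with results of these data known, so these shares are a description.

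**Figure D2:**
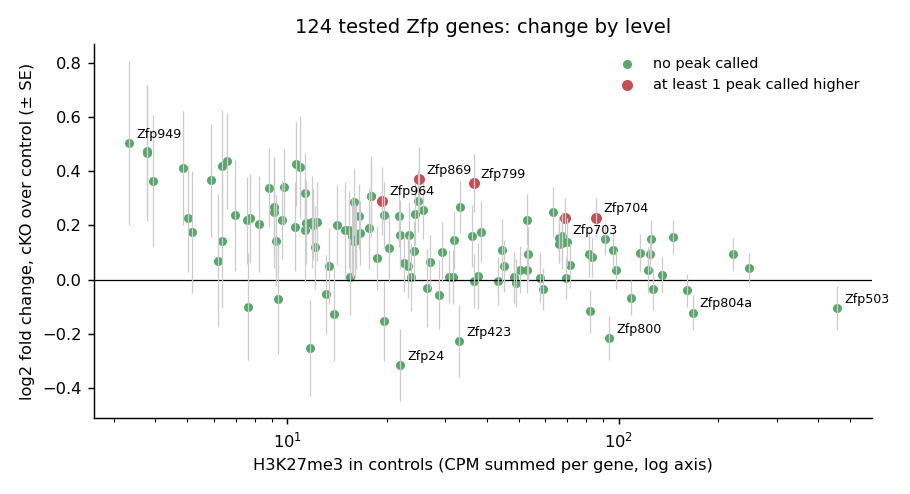
Log2 fold change (cKO over control, with SE) of the 124 tested Zfp genes against their control level in CPM on a log axis. Most points lie above 0 (103 of 124), and red points mark the 5 genes with a peak called higher.

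Taken animal by animal, the difference was small. In each animal the ratio of every tested Zfp gene to the mean of the batch's controls was taken on a log2 scale with 0.5 CPM added, and each control was set against the other controls of its batch. The medians over the 124 genes were 0.21, 0.16, 0.033, 0.12 and 0.068 in cKO replicates 1 to 5. In control replicates 1 to 5 they were 0.016, -0.016, -0.039, -0.011 and 0.056. All 5 cKO values were above 0, but cKO replicate 3 lay below control replicate 5, so the groups overlap. The reads in Zfp peaks made up 0.517% to 0.575% of all reads in peaks in controls and 0.572% to 0.616% in cKO.

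Median changes were larger at genes with little mark, and those of other genes followed the same order. Of Zfp genes under 10 CPM in controls, 22 of 24 had a log2 fold change above 0 and the median was 0.24. Other genes at that level had 62.9% above 0 and a median of 0.091. From 10 to 30 CPM, 42 of 49 Zfp genes were above 0 with a median of 0.17, against 58.3% and 0.051. From 30 to 100 CPM, 31 of 38 were above 0 with a median of 0.089, against 53.7% and 0.021. Above 100 CPM, 8 of 13 were above 0 with a median of 0.035, against 35.6% and -0.034. Lower calls among other genes rose with the level over these ranges, from 1.05% to 4.73%, 11% and 16.3%. The control level that sets these ranges is also the base of each log2 fold change. Random error in the controls therefore moves level and change in opposite directions, so the order is partly built in. The part of the level in the Zfp values was not tested.

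Tested singly, 5 Zfp peaks rose and 0 fell. The fit covered 16307 peaks, of which 1.46% were higher and 7.38% lower, and 157 of the 176 Zfp peaks were tested. Calls among peaks of other coding genes differed by position. From 1 to 2 kb upstream, 28 of 649 were higher and 4 lower, and from 2 to 5 kb upstream 29 of 824 were higher and 7 lower. Across the start site, 51 of 4143 were higher and 175 lower. DESeq2 called 0 of the 157, and at an unadjusted p under 0.05 edgeR had 22 higher and 3 lower. Log2 fold changes were above 0 for 129 of the 157 (82.2%), against 54.4% of all peaks tested.

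The clearest rise was across the start site of Zfp703, a NET family repressor related to Zfp503 and known in human breast cancer (chromosome 8, 26977930 to 26984500, mm10). This peak held 65.2 and 71.1 CPM in the batch 1 controls and 47.4, 40.0 and 45.3 CPM in the batch 2 controls. In cKO it held 83.1 and 83.2 CPM in batch 1 and 55.5, 56.6 and 56.4 CPM in batch 2. Within each batch every cKO animal lay above every control, although the batches themselves differed. Fitted with edgeR, cKO exceeded control by 0.32 ± 0.08 on the log2 scale (SE, adjusted p = 0.0095). It passed in all 10 fits that left out 1 animal, with adjusted p from 0.00851 to 0.0382, but not with DESeq2 (adjusted p = 0.159), without a batch term (0.326), with the first technical duplicate only (0.0791), in batch 2 alone (0.057) or in batch 1 alone (0.374). The other tested peak of the gene, 4425 bp upstream, had a log2 fold change of -0.049 ± 0.15, and the sum over the gene did not pass (0.23 ± 0.07, adjusted p = 0.0562).

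The peak at Zfp704 lay within the gene, 2355 bp from an annotated start (chromosome 3, 9600950 to 9607730). It held 35.8 and 30.8 CPM in batch 1 controls, 26.1, 23.9 and 24.5 CPM in batch 2 controls, 49.0 and 42.1 CPM in batch 1 cKO and 29.7, 30.3 and 31.5 CPM in batch 2 cKO. Again the genotypes did not overlap within a batch. The fitted rise was 0.35 ± 0.10 (log2, SE, edgeR adjusted p = 0.0213), and it was lost in 3 of the 10 fits without 1 animal, at most to 0.104 without cKO replicate 1. A peak 1135 bp upstream had 0.40 ± 0.13 (adjusted p = 0.0579), while a peak 16145 bp upstream had -0.040 ± 0.11.

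The other 3 called peaks lay upstream of genes in chromosome clusters. The Zfp869 peak, 3957 bp upstream (chromosome 8, 69720940 to 69725800), held 10.45 to 16.8 CPM in controls, with a median of 13.2 CPM, and 14.4 to 22.7 CPM in cKO, with a median of 19.5 CPM. The groups overlap across batches, because cKO replicate 1 lay below control replicate 5, but not within a batch. Its fitted rise was 0.53 ± 0.14 (log2, SE, edgeR adjusted p = 0.0198), and 7 of the 10 fits without 1 animal kept the call (at most 0.074, without control replicate 4). The Zfp964 peak, 2359 bp upstream (chromosome 8, 69650740 to 69652120), held only 4.48, 3.78, 6.88, 5.49 and 4.98 CPM in control replicates 1 to 5 and 5.86, 7.01, 8.44, 12.5 and 8.0 CPM in cKO replicates 1 to 5. Within each batch the cKO animals lay above the controls. Its log2 fold change was 0.69 ± 0.20 (edgeR adjusted p = 0.0428), and 4 of the 10 fits kept the call (at most 0.226, without cKO replicate 4). It was also lost with a replicate block (0.0559) and without the filter on low counts (0.053). The other Zfp964 peaks, 12887 bp and 20967 bp downstream, were at 0.18 ± 0.23 and 0.11 ± 0.18 (log2, SE). Summed over its 3 peaks, Zfp964 did not pass (0.29 ± 0.13, edgeR adjusted p = 0.168). Fitted alone, batch 1 gave 0.008 for this sum and batch 2 gave 0.42.

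The Zfp799 peak, the sole peak of the gene, lay 1179 bp upstream (chromosome 17, 32831440 to 32839450). It held 37.3, 34.0, 35.8, 35.7 and 39.9 CPM in control replicates 1 to 5 and 53.3, 47.6, 44.2, 37.0 and 55.5 CPM in cKO replicates 1 to 5. The level of cKO replicate 4 fell within the range of the controls, and the other 4 cKO animals lay above it. The fitted rise was 0.37 ± 0.11 (log2, SE, edgeR adjusted p = 0.0318), and 3 of the 10 fits without 1 animal kept the call (at most 0.152, without cKO replicate 5). As a gene, Zfp799 passed narrowly (0.36 ± 0.11, adjusted p = 0.0422) and lost the call in 8 of the 10 fits without 1 animal (at most 0.129, without cKO replicate 5) and with DESeq2 (0.153). None of the 5 peaks passed with DESeq2 (adjusted p = 0.159 to 0.429), without a batch term (0.0928 to 0.326) or in either batch alone, and with the first technical duplicate only the Zfp704 peak alone of the 5 passed (0.0233).

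**Figure D3:**
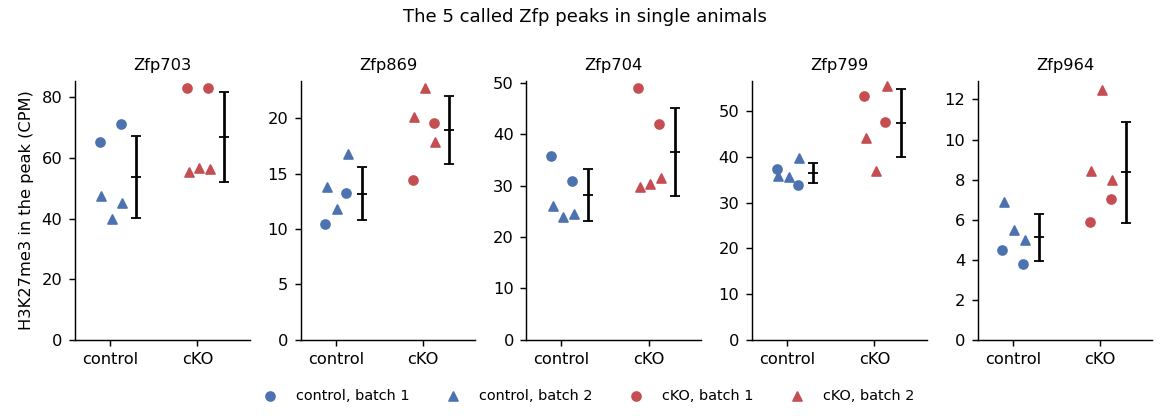
H3K27me3 (CPM) in the 5 called Zfp peaks in each animal, by genotype (colour) and batch (shape), with mean and SD over 5 animals in black. The batch 1 animals are higher at Zfp703 and Zfp704, and within each batch the cKO points of these peaks lie above the controls (for Zfp703 83.1 and 83.2 CPM against 65.2 and 71.1 CPM in batch 1).

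Log2 fold changes differed by the position of the peak, and those of other coding genes followed a similar order except downstream. From 2 to 5 kb upstream, 30 of 33 Zfp peaks had a log2 fold change above 0, with a median of 0.18. Of 824 peaks of other coding genes there, 81.0% were above 0, with a median of 0.16. From 1 to 2 kb upstream, 29 of 35 Zfp peaks were above 0 (median 0.17), against 82.1% of 649 (median 0.16). Across the start site, 13 of 22 Zfp peaks were above 0 (median 0.034), against 48.6% of 4143 (median -0.0046). Over 10 kb upstream, 17 of 23 were above 0 (median 0.094), against 55.2% of 1136 (0.040). Downstream the values were further apart, with 18 of 21 above 0 and a median of 0.19 for Zfp peaks against 56.5% and 0.036 for 2270 others. Peaks across a start also held more reads, with a control median of 51.5 CPM for Zfp genes against 17.6 CPM from 1 to 2 kb upstream, so position and level move together. No test separated them.

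**Figure D4:**
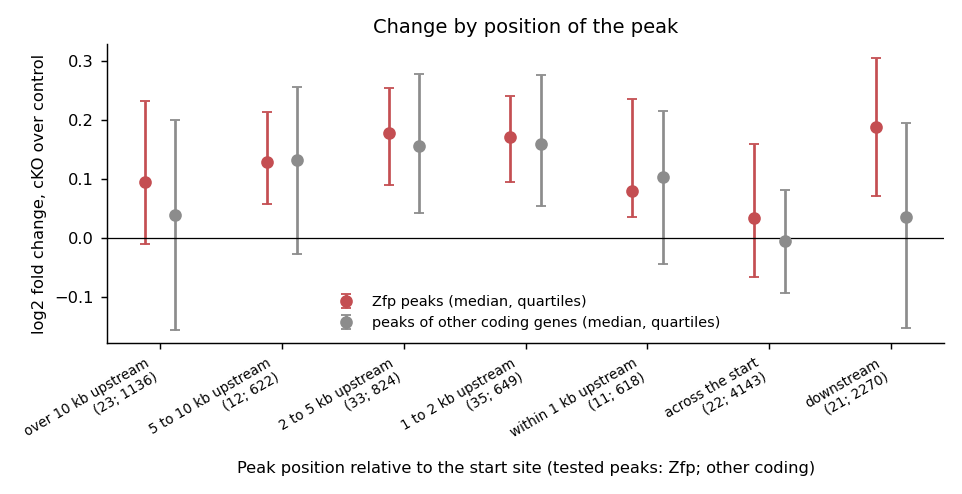
Median log2 fold change (cKO over control) with quartiles for tested Zfp peaks and for peaks of other coding genes, by position relative to the start site, with the numbers of peaks in brackets. From 1 to 5 kb upstream both sets have medians from 0.16 to 0.18, and across the start both lie near 0 (0.034 and -0.0046).

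Read by promoter window, the same split appeared. The 15 Zfp genes with a peak in any of their promoter windows had a control median of 93.6 CPM, 7 of 15 had a log2 fold change above 0 and the median was -0.012. Of the 96 others, 89 were tested, 80 of these were above 0 and the median was 0.16, at a control median of 17.9 CPM.

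Chromosome clusters were formed from Zfp genes whose peaks lay within 500 kb of the next, with at least 3 genes. There were 8 such clusters, with 48 genes and 60 peaks, and the other 85 genes held 116 peaks. Only 1 of the 60 peaks in clusters (1.67%) spanned a start site, against 22 of 116 (19.0%) outside. In clusters 44 of 47 tested genes (93.6%) had a log2 fold change above 0, with a median of 0.19, and outside 59 of 77 (76.6%) with a median of 0.13. Zfp799 was the sole called gene in a cluster, and 0 were called outside. The median control level per gene was 19.0 CPM in clusters and 22.5 CPM outside. The difference between these sets was not tested.

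Of the 8 clusters, that on chromosome 8 (69627320 to 69780160, with Zfp868, Zfp964, Zfp869 and Zfp866) had the largest change. Its sum was 108, 116, 109, 129 and 125 CPM in control replicates 1 to 5 and 118, 131, 146, 173 and 146 CPM in cKO replicates 1 to 5. Within each batch all cKO animals lay above all controls. The mean log2 ratio of the cKO animals to their batch's controls was 0.27 ± 0.16 (SD, n = 5), and all 4 genes had a log2 fold change above 0, with Zfp869 at 0.37 ± 0.12 (edgeR adjusted p = 0.056).

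The 10 genes on chromosome 13 (67117090 to 67695440, Zfp759 to Zfp738) summed to 207 ± 18.7 CPM in the control group and to 226 ± 5.78 CPM in cKO. Their mean log2 ratio was 0.13 ± 0.07, with 5 of 5 cKO animals above the control mean of their batch and 7 of 10 genes above 0. Zfp457 had the smallest p in this cluster (log2 fold change 0.27 ± 0.09, adjusted p = 0.0856). The 9 genes on chromosome 17 from 32831440 to 33616640, Zfp799 to Zfp414, summed to 254 ± 20.6 and 281 ± 14.2 CPM, with a mean log2 ratio of 0.15 ± 0.12, again with 5 of 5 above. These 3 clusters were the only ones of the 8 in which all 5 cKO animals lay above the control mean of their batch.

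The other chromosome 17 cluster (21374500 to 22422840, 10 genes from Zfp677 to Zfp946) had the most reads, 328 ± 18.3 CPM in the control and 353 ± 26.3 CPM in the cKO group. Its mean log2 ratio was 0.11 ± 0.15, with cKO animals from -0.091 to 0.33, and Zfp53 was at 0.29 ± 0.12 (edgeR adjusted p = 0.132). The chromosome 10 cluster (Zfp433, Zfp781, Zfp873 and Zfp938) had a mean ratio of 0.10 ± 0.12, with Zfp873 at 0.17 ± 0.12. The 3 clusters on chromosome 7 had 0.081 ± 0.10 (Zfp551, Zfp606 and Zfp329), 0.17 ± 0.19 (Zfp180 to Zfp108) and 0.10 ± 0.15 (Zfp59, Zfp974 and Zfp850), and the genes with the smallest p were Zfp329 (0.20 ± 0.13), Zfp109 (0.18 ± 0.11) and Zfp974 (0.18 ± 0.19). In each of these 5 clusters at least 1 cKO animal lay below the control mean of its batch. The SDs of the 8 clusters overlap, so their order is not resolved, and no test between clusters was made.

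**Figure D5:**
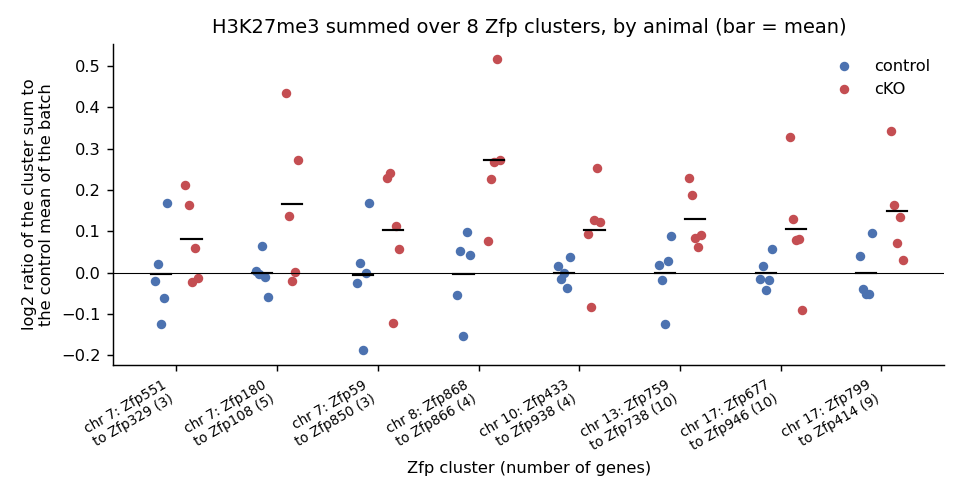
Log2 ratio of the summed H3K27me3 of each of the 8 Zfp clusters to the mean of the batch's controls, for each control and cKO animal, with bars at the group means. Each control is part of the mean it is set against, which narrows the spread of the control points. The cKO means lie between 0.081 and 0.27, and the points of both groups overlap in most clusters.

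Zfp genes with known roles in development mostly had log2 fold changes below 0. Of 18 such genes listed, 10 had a peak, 8 were tested, 0 were called and 2 had a log2 fold change above 0, with a median of -0.10. Among them Zfp503 had -0.10 ± 0.08 (SE, edgeR adjusted p = 0.486) and Zfp804a -0.12 ± 0.06 (0.27). Its paralogue Zfp804b had -0.25 ± 0.18 (0.439). Zfp423, a regulator of cerebellar and fat cell development, had -0.23 ± 0.13 (0.336), and Zfp521, its paralogue, had -0.10 ± 0.20 (0.842). Zfp385b had -0.066 ± 0.07 and Zfp385c 0.15 ± 0.07 (0.199). Zfp703 was the other gene above 0. Zfp503, Zfp804a, Zfp385b and Zfp385c held over 100 CPM in controls, a level at which 35.6% of other genes were above 0. Zfp423, Zfp521 and Zfp703 held less, at levels where 53.7% or 62.9% of other genes were above 0. The part of level and position in these changes was not tested. Zfp365 and Zfp827 had too few reads to be tested, with 3.08 and 3.4 CPM in controls.

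The remaining role groups were small. Of 3 mRNA decay genes 1 had a peak, Zfp36l1, at -0.15 ± 0.15. Of 7 genes of imprinting, pluripotency and retroviral silencing, 3 were tested and all 3 were above 0 without a call. Zfp445, which protects imprints, had 0.32 ± 0.15 (SE, edgeR adjusted p = 0.253), Zfp568, a KRAB repressor of a placental Igf2 transcript, had 0.42 ± 0.19 (0.19) and Zfp296, a pluripotency factor, had 0.097 ± 0.07 (0.459). Of 5 genes of other tissues, Zfp541, known from male meiosis, had 0.16 ± 0.06 (0.132) and Zfp469, whose human counterpart is mutated in brittle cornea syndrome, had 0.036 ± 0.08 (0.853). Zfp366 had a peak but too few reads to be tested.

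The largest positive log2 fold change of a tested Zfp gene was at Zfp949 (0.50 ± 0.30, edgeR adjusted p = 0.352), at 3.34 CPM in controls, and the largest negative was at Zfp24 (-0.32 ± 0.13, adjusted p = 0.153), which fell short of the threshold at 21.9 ± 2.64 CPM in the control and 17.6 ± 3.07 CPM in the cKO group. Zfp800 had -0.22 ± 0.08 (adjusted p = 0.106). It passed in batch 2 alone (-0.34, adjusted p = 0.0176), and was named after its values were seen, as were Zfp24 and Zfp949.

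Zinc finger genes with other names and the KRAB co-repressor genes gave few calls, where 8.29% of all genes were lower and 1.48% higher. Of 11 Zkscan genes 4 were tested with 0 called, and their median log2 fold change was 0.14. Of 16 Zscan genes 2 were tested and Zscan25 rose (0.45, edgeR adjusted p = 0.0444). Of 40 Zbtb genes 15 were tested, with a median of 0.036, and Zbtb16 fell (-0.67, adjusted p = 0.014), from 25.4 to 15.7 CPM. This 1 of 15 is near the share over all genes. Zbtb16 encodes the BTB zinc finger repressor known as PLZF. Of 14 genes of the KRAB co-repressor machinery, 5 were tested, 0 were called and all 5 were above 0, with a median of 0.19.

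The genotype effect was not shown to differ between the batches at any Zfp gene. The edgeR test of the batch by genotype term, over all genes, called 0 of 128 Zfp genes, against 0.00864% of all genes, and 4 had an unadjusted p under 0.05. No other tool was run for this term. The smallest of these was at Zfp423, with a log2 ratio of cKO to control of -0.71 in batch 1 and 0.046 in batch 2 (edgeR adjusted p = 0.845 for the difference). Over the tested genes, the median log2 ratio of batch 1 to batch 2 was -0.016 for Zfp genes and -0.024 for all genes. The median change was 0.23 in batch 1 alone and 0.10 in batch 2 alone.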

How the data were processed

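H3K27me3 CUT&RUN was measured in 16 libraries from 10 animals. The 6 libraries made with IgG were left out. The authors deposited whole-number counts, of reads or of fragments, over 1 common peak set. The build was mm10, and the tools named, without their roles, were MACS2, SAMtools, DESeq2 1.38.1 and Novoalign 4.02.02, per the submitters' processing notes. The sources used here do not give how peaks were called or how multiply mapped reads were treated. Near-identical Zfp copies could therefore share reads. The width and distance of each peak, a mean signal, a log2 fold change with its error, a test score and p-values come with the counts, per the file headers. None of the comparison columns entered a test, because the contrast is not named. Genotypes follow the sample labels, which differ from the protocol, where all controls are Jarid2 fl/fl.

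The 6 pairs of technical duplicates differed by less than sampling noise and were summed, since chi-square over its degrees of freedom was 0.88 to 0.997 for them and 1.05 to 2.53 between animals of a group and batch, so each animal was 1 sample. Peaks were tested singly and as sums per gene with edgeR 4.0.16 (R 4.3.3): filterByExpr, TMM factors, batch plus genotype, glmQLFit and glmQLFTest, adjusted over the whole table. CPM used TMM-scaled totals, and SEs are the log2 fold change divided by the square root of F. DESeq2 1.42.0 was an alternative. Figures used matplotlib 3.10.9 (Python 3.11.15). On counts simulated from these animals, sums over 11216 genes recovered 76% of 100 genes changed 1.5-fold and 97% of 100 changed 2-fold, with 10 false calls, and 16030 single peaks 50% and 83%, with 2. Smaller changes were not simulated.

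Named genes were the called genes, the listed role genes with a peak, the 5 with the highest control CPM, the smallest p of each cluster, and genes with a called peak. The members and lists were chosen with earlier results of these data known. The alternatives tried were other scalings, no filter, no batch term, a replicate block, DESeq2, single batches, another threshold, the first duplicate only, promoter peaks only, other cluster gaps and leaving out each animal. The bins by distance, and promoter peaks only for named genes, were added after seeing the data. RefSeq holds all 133 genes by symbol. The counts of protein motifs planned for these genes were not made.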

Additional observations from a re-analysis of the deposited data

Results flagged for a closer look

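Among the 30 named Zfp genes, 60 groups of 5 animals were examined for a value far from the rest, and 2 stood out, where chance gives about 1 in 20. Zfp541 held 151 CPM in cKO replicate 5, and the other 4 cKO animals held 165 to 168 CPM. Zfp827 held 3.32 CPM in cKO replicate 5, and the other 4 held 4.15 to 4.46 CPM. Neither gene was called, and the cause was not tested.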

How the results depend on the processing

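The number of Zfp genes called higher, 1 with the settings of the report, was 8 with scaling to total reads (which moved the median log2 fold change of all genes from 0.015 to 0.073), 6 at an adjusted p under 0.1, 2 with promoter peaks alone (Zfp703 and Zfp704, with Zfp799 lost at an adjusted p of 0.0631), and 0 without the filter on low counts, without a batch term, with DESeq2, in batch 2 alone and in batch 1 alone. With the first duplicate only, the 1 gene called was Zfp53, and Zfp799 was lost (0.0889). The number ranged from 0 to 6 when 1 animal was left out, with 6 without control replicate 5. Of peaks, 5 were called higher, and 10 with total reads, 9 at an adjusted p under 0.1, 3 with the first duplicate only (of which the Zfp704 peak is 1 of the 5, the others being at Zfp53 and Zfp318), 2 in batch 2 alone (at Zfp868 and at Zfp704, 1135 bp upstream, neither of them among the 5), and 0 without a batch term, with DESeq2 and in batch 1 alone, with 2 to 6 when 1 animal was left out. Lower were 0 genes and 0 peaks, except 1 gene and 1 peak (both Zfp800) in batch 2 alone, and from 0 to 1 peak (Zfp503, without control replicate 5) when 1 animal was left out. The median log2 fold change of the Zfp genes, 0.15, was 0.23 in batch 1 alone and stayed above 0 under every alternative run. Over 27 named genes, 496 of 534 values kept their direction and side of the threshold. All 15 lost calls were at Zfp799, the sole gene called with the settings of the report, and 13 values gained a call. Another 10, none of them called, changed sign. These log2 fold changes were Zfp959 at 0.018 with total reads, Zfp36l1 at 0.031, Zfp423 at 0.024 and Zfp853 at -0.00082 in batch 2 alone, Zfp385c at -0.0097, Zfp469 at -0.13, Zfp521 at 0.045, Zfp804a at 0.016 and Zfp959 at 0.12 in batch 1 alone, and Zfp521 at 0.079 without cKO replicate 3 (from -0.20 to 0.079 over the fits without 1 animal). The cause of these changes was not tested.

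With a replicate block, 2 Zfp genes and 4 Zfp peaks were called higher: the gene Zfp704 was gained (adjusted p = 0.0428) and the Zfp964 peak was lost (0.0559). The deviations of same-numbered animals from the mean of their group and batch correlated at -0.461 in batch 1 and at 0.114, 0.0287 and 0.0399 in batch 2. With 2 animals per group in batch 1 the deviations mirror each other, so its correlations have a single size with either sign. In batch 2 they sum to 0, so its correlations depend on each other. Each batch 2 animal correlated best with its own number, a weak hint from the data. The margin was as small as 0.0287 against 0.0277 for cKO replicate 4. Not every same-numbered pair exceeded 0.1, so the numbers were not taken to pair the samples. Depth is low at some called peaks, such as that of Zfp964 with 5.12 CPM in controls.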

Other observations

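In the authors' deposited table, the log2 fold change of the peaks followed the batches and not the genotypes. Across 16307 peaks, which are not independent replicates, it had a Pearson r of 0.997 with the log2 ratio of batch 1 to batch 2 and of 0.347 with the cKO over control log2 fold change fitted here. At the start-site peak of Zfp703 the authors' deposited table gives 0.58 (adjusted p = 3.63e-06), where the log2 ratio of batch 1 to batch 2 was 0.56 and the fitted log2 fold change of cKO over control was 0.32. The sign of the deposited test score was opposite to that of the deposited fold change in 100% of these peaks.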
